A study of Mus musculus with 25 samples.

Results

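Chromatin accessibility was described at 7 receptor genes of CD8+ T cells: Tigit, Cd96, Cd226, Havcr2, Btla, Cd160 and Cd244a. A peak belonged to a gene if its midpoint had that gene's start as the nearest start of a protein-coding gene, or lay inside the gene (GENCODE vM39, genome GRCm39). Of the 13527 peaks in the merged table, 19 met this rule, 5 at Tigit, 2 at Cd96, 6 at Cd226, 4 at Havcr2 and 2 at Btla. Neither Cd160 nor Cd244a had a peak in the table.

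The cells were fetus/graft-specific CD8+ T cells (T_FGS) from spleen and lymph nodes of C57BL/6 females, sorted with a tetramer that binds OVA-specific T cells, and opened DNA was tagged by transposase (ATAC-seq). Paternal and graft tissue came from 2W-OVA.BALB/c mice, in which 2W-OVA is expressed constitutively. Females were 8 to 12 weeks old when obtained. Naive females had received nothing (3 libraries), and Sensitized females had rejected a paternal skin graft 30 days or more earlier (4 libraries). N+P females were Naive before a semi-allogeneic pregnancy and gave PD1- cells (C1, 3 libraries) and PD1+CD73+ cells (C5, 3 libraries). S+P females were sensitized before the pregnancy and gave PD1- cells (C4), PD1+CD73+ cells (C5) and PD1+CD73- cells (C7), with 4 libraries each. Cells of pregnant females were taken at post-partum day 0 to 3. Naive and Sensitized cells were not divided by PD1 or CD73, so that a comparison with them sets a sorted subset beside all tetramer-binding cells. The sort gates were PD1 and CD73, but they were drawn to capture flow cytometry clusters defined with a panel that held TIGIT and TIM3, so that the subsets were not chosen independently of these receptors.

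TIGIT, CD96 and CD226 compete for the same ligand, CD155, and for nectins on neighbouring cells. CD226 is activating, whereas TIGIT recruits phosphatases that restrain T cell signaling. TIM3 (gene Havcr2) binds galectin-9, CEACAM1 and other ligands and accumulates on chronically stimulated CD8+ T cells. BTLA and CD160 both bind HVEM, and CD244 binds CD48. Accessible chromatin at a gene shows that regulatory proteins can reach it, and says nothing of its transcript level. In bulk libraries, a peak open in fewer cells and a peak less open in each cell cannot be told apart.

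Libraries held between 2430890 and 25419715 counts in peaks. Promoter peaks were found for 6 of 8 CD8 T cell markers (Cd8b1 and Cd2 had none), including Cd8a and the CD3 genes, and their mean level per kb ranged from 372 to 595 normalized counts over all libraries. The CD4 T cell, B cell, myeloid, NK cell and erythroid lists (3, 4, 5, 3 and 3 genes) had 0 promoter peaks in the table. Some libraries stood apart from their group. Naive replicate 3 was most like N+P C1 over all peaks (r = 0.988, against 0.970 with Naive). Across all peaks, Sensitized replicates 3 and 4 were most like N+P C5 (r = 0.973 and 0.955, against 0.918 and 0.937 with their own group). Sensitized replicate 1 was most like S+P C4 (r = 0.931 against 0.868), and S+P C4 replicate 1 was most like N+P C5 (r = 0.923 against 0.869). Results against Sensitized are therefore also given without its replicates 3 and 4. The table itself was merged from 1 deposited peak list per group, so that a peak entered it through the groups in whose lists it was found. The 6 member peaks called higher in S+P C5 than in N+P C5 were in lists of S+P C5 or S+P C7 alone, and the 5 called lower were in lists of Naive, N+P C1 or N+P C5 alone. The tests of these 11 peaks are thus not independent of how the peaks entered the table.

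Peaks are named by the distance of their midpoint from the gene's annotated start, in the direction of transcription. The sequence of the central 300 bases is shown for 3 peaks: the Tigit peak that changed most, a Cd96 peak that was lower and a Havcr2 peak that was higher in S+P cells. Each is from the plus strand of GRCm39, 5′ to 3′. Tigit and Cd96 are transcribed from the minus strand, Havcr2 from the plus strand. Capitals mark the strings searched for on both strands.
Tigit 2.24-kb peak, chr16:43482119-43482418: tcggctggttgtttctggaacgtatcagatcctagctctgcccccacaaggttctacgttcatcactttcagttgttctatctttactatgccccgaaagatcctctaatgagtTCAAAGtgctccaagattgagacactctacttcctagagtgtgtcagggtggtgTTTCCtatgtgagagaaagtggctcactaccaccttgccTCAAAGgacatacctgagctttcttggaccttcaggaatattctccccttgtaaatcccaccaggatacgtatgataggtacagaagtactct
Cd96 15.6-kb peak, chr16:45924890-45925189: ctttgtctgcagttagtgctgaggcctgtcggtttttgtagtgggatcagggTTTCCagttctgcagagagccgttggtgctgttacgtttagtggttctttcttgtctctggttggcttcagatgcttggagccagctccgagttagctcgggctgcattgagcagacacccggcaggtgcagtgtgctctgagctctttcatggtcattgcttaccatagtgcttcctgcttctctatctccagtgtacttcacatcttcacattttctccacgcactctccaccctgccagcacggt
Havcr2 19.5-kb peak, chr11:46365069-46365368: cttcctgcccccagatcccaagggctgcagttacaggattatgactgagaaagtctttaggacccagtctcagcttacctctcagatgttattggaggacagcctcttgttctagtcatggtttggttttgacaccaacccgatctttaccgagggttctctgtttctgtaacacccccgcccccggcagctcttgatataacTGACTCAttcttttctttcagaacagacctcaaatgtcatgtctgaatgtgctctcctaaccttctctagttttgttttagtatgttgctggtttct
The strings were GGAAA (NFAT), TGANTCA (AP-1), TGTGGT (RUNX), GGTGTGA (T-box), CTTTGA (TCF/LEF), AAGGTCA (NR4A) and CCGGAAG (ETS). The Tigit 2.24-kb window held the TCF/LEF string 2 times and the NFAT string 1 time. The Cd96 window held 1 NFAT string and the Havcr2 window 1 AP-1 string. Over the windows of 18 of the 19 peaks, the NFAT string was in 12, the TCF/LEF string in 6, the RUNX string in 5 and the AP-1 string in 4. The T-box, NR4A and ETS strings were in 0. Among windows of the same length at all 13527 peaks, 59.0% held the NFAT string, 16.3% TCF/LEF, 9.20% AP-1, 24.3% RUNX, 5.12% T-box, 3.45% NR4A and 12.7% ETS. None of these strings contains another. A match describes letters and is no evidence that a factor binds.

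The clearest difference lay inside Tigit (ENSMUSG00000071552.7, chr16:43469100-43484509, minus strand), which encodes the inhibitory receptor for CD155. An intron peak 2.24 kb from the gene's start (chr16:43481871-43482667) held 44.1, 26.6 and 51.1 normalized counts in Naive, 27.7, 40.4 and 39.6 in N+P C1, and 44.3, 45.2 and 48.1 in N+P C5. Sensitized libraries held 72.1, 56.5, 57.3 and 77.6, and S+P C4 held 136, 81.8, 97.6 and 104. Values in S+P C5 were 339, 386, 369 and 315, and those in S+P C7 were 324, 237, 224 and 225. The lowest S+P C5 library was above every library of the other groups except S+P C7 replicate 1. N+P C1 and N+P C5 each overlapped Naive, and N+P C5 lay just above N+P C1. Each step from N+P C5 to Sensitized, from Sensitized to S+P C4 and from S+P C4 to S+P C7 was without overlap.

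The Tigit 2.24-kb peak was 5.32-fold higher in S+P C5 than in Sensitized cells (log2 fold change 2.41 ± 0.19 SE, adjusted p = 9.51e-34, DESeq2). A call was also made in S+P C7 against Sensitized (1.94 ± 0.19, adjusted p = 2.43e-21), in S+P C5 against N+P C5 (2.94 ± 0.23, adjusted p = 1.78e-33) and also against S+P C4 (1.78 ± 0.19, adjusted p = 3.27e-16). The first of these values was 2.45 without Sensitized replicates 3 and 4. With loess offsets, which center the differences of peaks of like level on 0, the first value was 1.38 and still called, whereas S+P C7 against Sensitized (0.88) and S+P C5 against N+P C5 (0.76) fell under the fold threshold. The value in S+P C5 against S+P C4 was then 0.92, still called. The peak was in the S+P C5 list alone, so that the group in which it was highest had admitted it to the table. The Sensitized to Naive difference was 0.69 (adjusted p = 0.0251), which turned to -0.60 with loess offsets (adjusted p = 0.166), and the S+P C4 to Sensitized difference 0.63 (adjusted p = 0.0558), both under the fold threshold of 0.9. In N+P C5 against Naive the estimate was 0.16, with a 95% interval from -0.37 to 0.69 on the log2 scale. The difference of C5 cells from undivided cells without pregnancy was larger in sensitized than in unsensitized females by 2.25 ± 0.33 (interaction, adjusted p = 9.25e-08). With loess offsets it was larger by 1.37 (adjusted p = 0.0177). This contrast holds the sort on PD1 and CD73 as well as pregnancy, which cannot be told apart here. Between S+P C7 and S+P C5 the difference was -0.47 (adjusted p = 0.0997), also under the fold threshold.

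The Tigit promoter peak was open throughout. It held 1375, 1289 and 1444 normalized counts in Naive, 961, 1337 and 1490 in N+P C1, and 1181, 1416 and 1520 in N+P C5. It held 1326, 1583, 1168 and 1326 in Sensitized, 1307, 1379, 1366 and 1219 in S+P C4, and 1459, 1699, 1600 and 1348 in S+P C5. Values in S+P C7 were 1613, 1733, 1586 and 1449. Most groups overlapped, although S+P C7 lay above every Naive and S+P C4 library, and the S+P C5 to Sensitized estimate was 0.18, with a 95% interval from -0.05 to 0.40. The peaks 26.3 kb and 35.0 kb upstream of Tigit, and a peak 287 kb downstream that lies in an intron of Zbtb20 and belongs to Tigit by nearest start alone, were called in 0 of 11 comparisons. Scaled per kb of peak, the Tigit 2.24-kb peak in S+P C5 averaged 442 normalized counts, against 918 for the promoter, and in Naive 50.9 against 823.

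**Figure D1:**
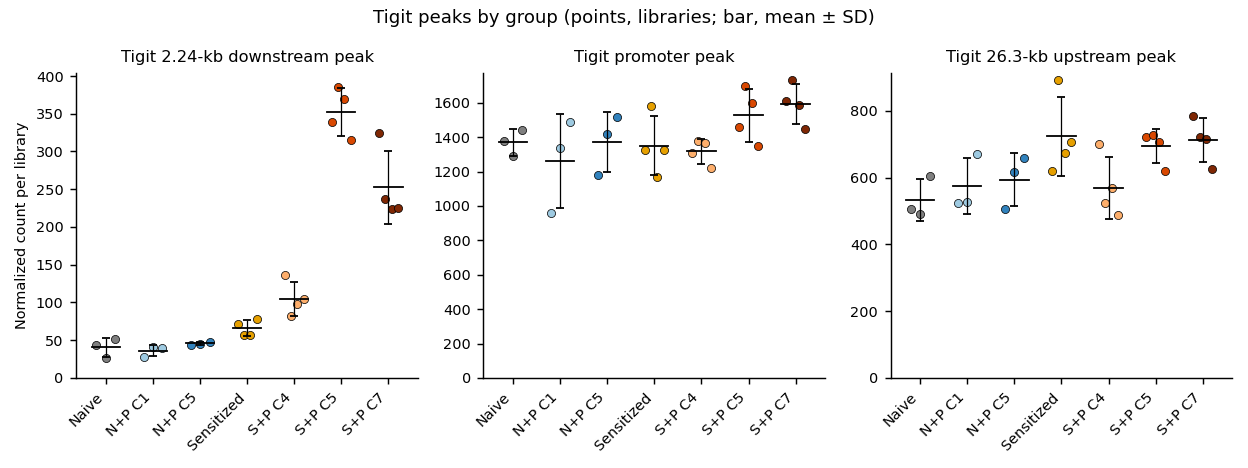
Normalized counts of 3 Tigit peaks (vertical axes, linear and from 0) in each library (points) of the 7 groups, with the group mean and SD as bars. At the 2.24-kb intron peak S+P C5 and S+P C7 lie between 224 and 386 and all other libraries at or below 136, while the promoter and the 26.3-kb upstream peak show no such step.

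Cd96 (ENSMUSG00000022657.10, chr16:45856020-45940614, minus strand) encodes another CD155 receptor, related to TIGIT. Its intron peak 15.6 kb from the start (chr16:45924823-45925258) moved opposite to the Tigit intron peak. Naive libraries held 300.3, 295 and 315 normalized counts, N+P C1 263, 405 and 341, and N+P C5 232, 269 and 298. Sensitized libraries held 56.5, 82.4, 298 and 245, S+P C4 303, 159.7, 86.3 and 119, S+P C5 87.3, 33.7, 33.6 and 52.2, and S+P C7 61.2, 15.3, 9.94 and 34.3. Sensitized thus split into a low pair (replicates 1 and 2) and a high pair, of which replicate 3 was in the Naive range and replicate 4 below it, and S+P C5 overlapped the low pair.

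The Cd96 15.6-kb peak was lower in S+P C5 than in N+P C5 (-2.35 ± 0.52, adjusted p = 4.12e-05), where groups did not overlap, and than in S+P C4 (-1.65 ± 0.49, adjusted p = 0.0109). Loess offsets gave -3.94 in the first of these. Against Sensitized it was lower in S+P C5 (-1.70 ± 0.48, adjusted p = 0.00474), as it was for S+P C7 (-2.45 ± 0.50, adjusted p = 8.74e-06). The C5 value was -2.59 with loess offsets. On leaving out Sensitized replicates 3 and 4 the C5 and C7 values were -0.39 (adjusted p = 0.716) and -1.13 (adjusted p = 0.0878), so the C5 call was lost. Without S+P C4 replicate 1 the S+P C5 to S+P C4 call was also lost (-1.21). The Cd96 promoter peak (chr16:45939142-45941479) held 897, 792 and 991 normalized counts in Naive, 925, 1129 and 1153 in N+P C1, and 895, 1128 and 1147 in N+P C5. It held 743, 1091, 998 and 1111 in Sensitized, 759, 824, 833 and 802 in S+P C4, and 652, 571, 649 and 689.6 in S+P C5. S+P C7 libraries held 663, 536, 789 and 767. S+P C5 lay below every Sensitized library, by -0.62 on the log2 scale (adjusted p = 6.90e-05), which is under the fold threshold.

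Cd226 (ENSMUSG00000034028.18, chr18:89195087-89290353, plus strand) encodes the activating receptor that shares CD155 with TIGIT, and had the most peaks. The peak 16.9 kb upstream (chr18:89177997-89178382) held 242, 193 and 259 normalized counts in Naive, 165, 267 and 309 in N+P C1, and 194, 218 and 262 in N+P C5. Sensitized held 112, 172, 271 and 268, S+P C4 held 245, 193, 87.7 and 89.4, S+P C5 gave 118, 53.6, 96.7 and 107, and S+P C7 gave 78.2, 30.6, 64.6 and 50.9. S+P C7 was below every Sensitized library and S+P C5 below every N+P C5 library. The peak was lower in S+P C5 than in N+P C5 (-1.25, adjusted p = 0.00259, and -2.35 with loess offsets) and than in Sensitized (-1.12, adjusted p = 0.00975), and lower in S+P C7 than in Sensitized (-1.86, adjusted p = 2.03e-06). The C5 call was lost without Sensitized replicates 3 and 4 (-0.58, adjusted p = 0.432), and the C7 call held (-1.32, adjusted p = 0.00881).

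A peak 64.9 kb into Cd226 (chr18:89259294-89260604) held 411, 443 and 486 normalized counts in Naive, 371, 482 and 531 in N+P C1, and 391, 509.9 and 483 in N+P C5. It held 217, 279, 434 and 468 in Sensitized, 422, 322, 298 and 304 in S+P C4, and 227, 124, 156 and 211 in S+P C5. S+P C7 gave 208, 145, 247 and 228. S+P C5 lay below every library of the Naive and N+P groups, and overlapped Sensitized replicate 1. It was lower in S+P C5 than in N+P C5 (-1.35 ± 0.25, adjusted p = 4.57e-07) and than in Sensitized (-0.95, adjusted p = 5.77e-04), and the latter became -0.44 without Sensitized replicates 3 and 4. That last call was also lost on leaving out Sensitized replicate 3 (-0.83), Sensitized replicate 4 (-0.77), S+P C5 replicate 2 (-0.82) or S+P C5 replicate 3 (-0.88).

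The peak 149 kb downstream (chr18:89344019-89344401) lies in an intron of Dok6 and belongs to Cd226 by nearest start. It held 285, 199.6 and 315 normalized counts in Naive, 267, 281 and 317 in N+P C1, 271, 278 and 335 in N+P C5, and 47.3, 88.7, 249 and 268 in Sensitized. S+P C4 held 225, 125, 62.2 and 151, S+P C5 107, 50.5, 41.2 and 60.5, and S+P C7 91.9, 34.05, 34.8 and 54.7. Sensitized replicates 1 and 2 were in the range of S+P cells, and replicates 3 and 4 were in that of Naive cells. The S+P C5 to N+P C5 difference was -2.17 ± 0.48 (adjusted p = 3.20e-05), or -3.51 with loess offsets, which also moved the S+P C5 to Sensitized difference to -2.03. Against Sensitized, S+P C5 was lower by -1.32 and S+P C7 by -1.58 (adjusted p = 0.0183 and 0.00180), and the values were -0.04 and -0.30 without Sensitized replicates 3 and 4, where neither passed. The C5 call was also lost without Sensitized replicate 3 (-1.04) or replicate 4 (-0.97) alone.

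A peak 164 kb downstream, also in Dok6, was called lower in S+P C5 than in N+P C5 (-1.24, adjusted p = 6.87e-04). The Cd226 promoter peak (chr18:89224076-89225401), 513 bp from the start of 1 of the gene's transcripts, held 781, 768 and 999 normalized counts in Naive, 828, 1081 and 1255 in N+P C1, and 812, 1002 and 1115 in N+P C5. Sensitized libraries held 498, 815, 939 and 976, S+P C4 926, 674, 516 and 592, S+P C5 592, 445, 634 and 527, and S+P C7 487, 301, 535 and 504. S+P C5 and S+P C7 lay below every Naive and N+P library. The peak was not called in any comparison. The difference of S+P C5 from N+P C5, -0.83, was under the fold threshold though the groups did not overlap. The 68.9-kb peak, in the gene body, was called in 0 of 11 comparisons.

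Havcr2 (ENSMUSG00000020399.16, chr11:46345673-46374149, plus strand) encodes TIM3, and the group means of its 4 peaks were lower in Naive and N+P cells than in Sensitized and S+P cells. Its promoter peak (chr11:46345444-46345844) held 23.4, 7.87 and 7.57 normalized counts in Naive, 8.85, 6.73 and 13.2 in N+P C1, and 3.02, 9.59 and 10.8 in N+P C5. It held 181, 94.9, 39.0 and 35.8 in Sensitized, 54.4, 147, 219 and 227 in S+P C4, and 103, 144, 123 and 170.2 in S+P C5. The S+P C7 values were 189.7, 299.6, 272 and 306. Every Sensitized and S+P library was above every Naive and N+P library, and S+P C7 was above Sensitized and S+P C5 without overlap. The promoter was higher in Sensitized than in Naive (2.82 ± 0.55, adjusted p = 8.08e-06) and in S+P C5 than in N+P C5 (4.14 ± 0.60, adjusted p = 1.18e-10), and S+P C7 was above Sensitized (1.61 ± 0.47, adjusted p = 0.00257). The S+P C5 to Sensitized estimate was 0.62 (adjusted p = 0.321). Leaving out Sensitized replicates 3 and 4, the C7 call was lost (0.95, adjusted p = 0.117) and the C5 estimate was -0.03.

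The peak 19.5 kb into Havcr2 (chr11:46365060-46365378) held 13.8, 7.87 and 12.6 normalized counts in Naive, 2.21, 0 and 11.3 in N+P C1, and 9.06, 23.3 and 21.6 in N+P C5. The count of 0 allows up to 3.36 normalized counts in that library (3 reads). Sensitized held 112, 52.6, 22.4 and 23.9, S+P C4 54.4, 132, 263 and 233, S+P C5 173, 204, 131 and 190.3, and S+P C7 244, 267, 234 and 302. S+P C5 and S+P C7 lay above every Sensitized library. Against Sensitized it was called in all 3 S+P subsets, C4, C5 and C7 in that order (1.71, 1.72 and 2.31, adjusted p = 0.0240, 0.00416 and 1.84e-05). When Sensitized replicates 3 and 4 were left out, the C4 and C5 values were 1.07 and 1.08 and no longer passed, and the C7 value was 1.66 (adjusted p = 0.00401). The C4 call was also lost without Sensitized replicate 4 (1.47), S+P C4 replicate 3 (1.43) or S+P C4 replicate 4 (1.52).

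At 7.31 kb (chr11:46352823-46353142) Havcr2 held 26.2, 14.8 and 24.6 normalized counts in Naive, 6.64, 26.9 and 15.1 in N+P C1, 28.2, 23.3 and 25.3 in N+P C5 and 165, 134, 47.6 and 42.8 in Sensitized. S+P C4 held 54.4, 147, 209 and 205, S+P C5 167, 262, 198 and 169, and S+P C7 246, 264, 249 and 308. The lowest S+P C5 library was just above the highest Sensitized one. The S+P C5 to Sensitized difference of 1.03 (adjusted p = 0.0469) was lost without Sensitized replicate 3 (0.80), replicate 4 (0.78) or both (0.41). It was also lost without S+P C5 replicate 2 (0.87). The S+P C7 difference was 1.46 (adjusted p = 0.00152), or 0.84 and not called without Sensitized replicates 3 and 4.

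At 12.1 kb (chr11:46357501-46358143) it held 66.1, 54.1 and 25.9 in Naive, 23.2, 22.4 and 37.7 in N+P C1, 31.2, 43.9 and 28.9 in N+P C5 and 435, 315, 82.0 and 83.0 in Sensitized. S+P C4 held 122, 229.8, 424 and 308, S+P C5 284, 488, 482 and 360.5, and S+P C7 299, 366, 555 and 416. Sensitized replicates 1 and 2 were within the S+P C5 range. The S+P C5 to Sensitized estimate was 0.82, with a 95% interval from -0.03 to 1.67, and it was 0.10 without Sensitized replicates 3 and 4. All 4 Havcr2 peaks were called in Sensitized against Naive (2.16 to 2.82) and in S+P C5 against N+P C5 (2.95 to 4.14). Loess offsets kept the 12.1-kb call in each (1.45 and 2.28) and lost the other 3. For the promoter, 7.31-kb and 19.5-kb peaks they gave 0.10, 0.15 and -0.69 in Sensitized against Naive, and 0.40, 0.09 and -0.71 in S+P C5 against N+P C5. In S+P C5 against S+P C4, which differ in PD1, the 4 estimates ran from -0.28 to 0.56 and 0 passed, whereas with loess offsets the promoter (-1.76) and the 19.5-kb peak (-1.56) were called lower in S+P C5. Of the Havcr2 calls against Sensitized, the 19.5-kb call in S+P C4 was kept under loess offsets (1.65). Those lost were the 7.31-kb and 19.5-kb calls in S+P C5 (-0.11 and 0.09) and the promoter, 7.31-kb and 19.5-kb calls in S+P C7 (0.15, 0.36 and 0.76).

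Btla (ENSMUSG00000052013.17, chr16:45044475-45078033, plus strand) encodes an inhibitory receptor for HVEM. A peak over an exon 27.9 kb into the gene (chr16:45072085-45072720) held 220.4, 221 and 244 normalized counts in Naive, 218, 250.1 and 249 in N+P C1, and 240.5, 217 and 227 in N+P C5. Sensitized held 80.8, 90.2, 198 and 205, S+P C4 272, 204, 113 and 91.9, S+P C5 475, 565, 368 and 335, and S+P C7 323, 356, 189 and 113. S+P C5 was above every library of the other groups except S+P C7 replicate 2. Sensitized replicates 1 and 2 were the lowest libraries. This peak was in the S+P C5 list alone.

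The Btla 27.9-kb peak was 3.03-fold higher in S+P C5 than in Sensitized (1.60 ± 0.34, adjusted p = 1.03e-04), and without Sensitized replicates 3 and 4 the difference was 2.35. It was also higher than in S+P C4 (1.38 ± 0.35, adjusted p = 0.00189) and N+P C5 (0.93 ± 0.37, adjusted p = 0.0252). The last call was lost with loess offsets (0.70) and without N+P C5 replicate 2 (0.90), S+P C5 replicate 1 (0.89) or S+P C5 replicate 2 (0.79). The interaction was 1.60 ± 0.53 (adjusted p = 0.0234). In S+P C7 against Sensitized the estimate was 0.77 (adjusted p = 0.0578), under the fold threshold, and without Sensitized replicates 3 and 4 it was 1.52 and called (adjusted p = 8.43e-04).

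The Btla promoter peak (chr16:45042911-45045712) had a lower mean in S+P C5 than in Sensitized and N+P C5, opposite to the 27.9-kb peak. Against S+P C4 its mean was higher in S+P C5 (1025 against 910). The promoter peak was not called in any comparison. It held 1502, 1307 and 1726 normalized counts in Naive, 1478, 1866 and 1814 in N+P C1, 1482, 2008 and 1710 in N+P C5 and 782, 1271, 1475 and 1633 in Sensitized. S+P C4 held 1041, 1033, 695 and 873, S+P C5 1065, 908, 1132 and 997, and S+P C7 877, 652, 729 and 668. S+P C5 lay below every Naive and N+P library. The difference from N+P C5 was -0.76, and that of S+P C7 from Sensitized -0.82 (adjusted p = 2.62e-05), both short of the fold threshold.

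**Figure D2:**
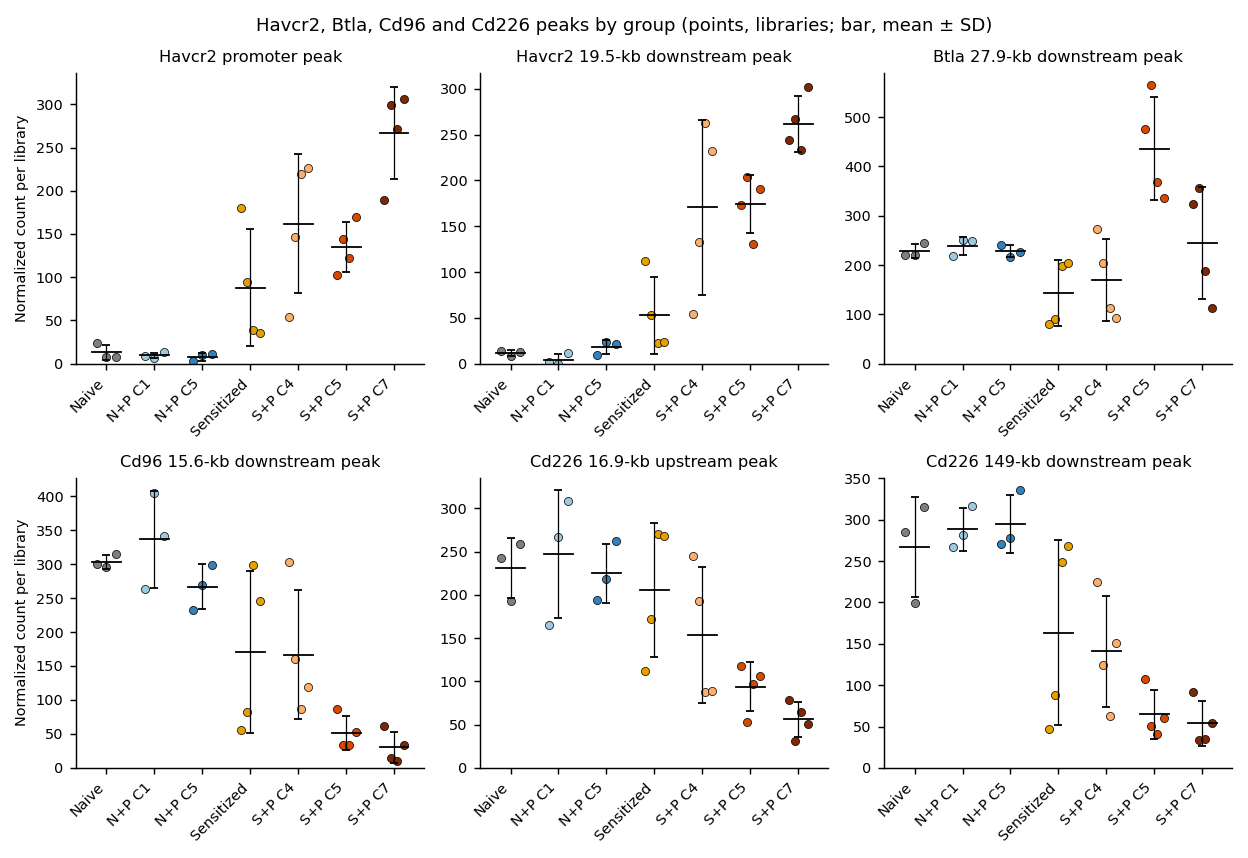
Normalized counts (vertical axes, linear and from 0) of 2 Havcr2 peaks, 1 Btla peak, 1 Cd96 peak and 2 Cd226 peaks in each library (points), with group mean and SD as bars. The group means of Havcr2 are near 0 in Naive and N+P cells and higher in the others, Btla is highest in S+P C5, and the Cd96 and Cd226 peaks are lowest in S+P C5 and S+P C7, with Sensitized libraries spread between both levels.

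Over the 5 genes with peaks, 11 of 19 peaks were called in at least 1 comparison. Of the 5 promoter peaks 1 was called (Havcr2), and of the other 14 peaks 10. Over all peaks 22.0% were called in at least 1 comparison, 4.95% of promoter peaks and 44.3% of the others. Loess offsets moved the balance of higher and lower calls. They gave 1 higher and 2 lower members in Sensitized against Naive, where 5.25% of all peaks were called higher and 2.65% lower, and 1 higher and 5 lower in S+P C5 against N+P C5 (6.6% and 8.46%). Against Sensitized they gave 2 higher and 4 lower in S+P C5 (1.45% and 4.79%) and 0 higher and 3 lower in S+P C7 (1.71% and 8.83%). In S+P C5 against S+P C4 they gave 2 higher and 5 lower (1.84% and 3.4%), and for the interaction 2 and 5 (1.49% and 5.02%). In Sensitized against Naive 4 of 19 peaks were called, all higher and all at Havcr2. Of all 13527 peaks 8.62% were called (7.22% higher and 1.4% lower). Without Sensitized replicates 3 and 4 there were 8 calls, the 4 at Havcr2 and 4 lower ones, at Cd96 (-2.13), Cd226 (-1.98 at 149 kb and -1.02 at 164 kb) and Btla (-1.42). The share of all peaks called was then 15.2%.

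Pregnancy without prior sensitization left these loci without a call. In N+P C1 against Naive, 0 of 19 peaks were called (background 0.00739%), with 1 at an unadjusted p under 0.05 in DESeq2 and 0 calls in edgeR. That peak was the 19.5-kb Havcr2 peak with the count of 0 (-1.58). In N+P C5 against Naive, 0 were called (background 0.00739%), with 0 at an unadjusted p under 0.05 and 0 in edgeR, and estimates ran from -0.70 to 0.65. DESeq2's filter on low counts gave an adjusted p to 6 and 5 of the 19 peaks in these comparisons, and without that filter the calls were also 0. Without Naive replicate 3, 1 peak was called in N+P C1 against Naive (1.18% of all peaks) and 0 in N+P C5 against Naive (1.16%). In N+P C5 against N+P C1, 0 were called (background 0.0%), with 1 at an unadjusted p under 0.05, again the 19.5-kb Havcr2 peak (2.23), and 0 in edgeR.

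In sensitized females, S+P C4 against Sensitized had 1 call, the 19.5-kb Havcr2 peak, beside 0.858% of all peaks (0.562% higher and 0.296% lower). The count was 0 without Sensitized replicates 3 and 4 (2.31% of all peaks), Sensitized replicate 4 (0.784%), S+P C4 replicate 3 (0.643%) or S+P C4 replicate 4 (0.488%). It was 2 if S+P C4 replicate 1 was left out (1.73% of all peaks) and 3 if Sensitized replicate 1 was (1.94%). S+P C5 against Sensitized had 8 calls, 4 higher and 4 lower (background 6.74%, with 3.08% higher and 3.67% lower). Higher were the Tigit 2.24-kb, Btla 27.9-kb and Havcr2 7.31-kb and 19.5-kb peaks, and lower were the Cd96 15.6-kb peak and 3 Cd226 peaks. With Sensitized replicates 3 and 4 left out the calls were 2, at Tigit and Btla, and 3.25% of all peaks were called. Without Sensitized replicate 3 or replicate 4 alone, 5 were called (4.61% and 4.81% of all peaks). The median log2 fold change was -0.17 for the 19 peaks and -0.01 for all peaks.

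S+P C7 against Sensitized had 7 calls, 4 higher and 3 lower (background 11.9%, with 3.84% higher and 8.03% lower), and 5 without Sensitized replicates 3 and 4 (6.96% of all peaks). Without Sensitized replicate 1 there were 12 (14.5%). S+P C5 against N+P C5, which were sorted on the same markers, had 11 calls, 6 higher (Tigit, Btla and the 4 Havcr2 peaks) and 5 lower (Cd96 and 4 Cd226 peaks), beside a background of 17.2% (10.3% higher and 6.97% lower). S+P C5 against S+P C4 had 3 calls (background 5.12%), higher at Tigit and Btla (3.12% of all peaks) and lower at Cd96 (2.0%). Same-numbered S+P libraries deviated together, and with the replicate number as a block 5 were called, the added ones at Cd226 64.9 kb (-0.92) and 149 kb (-1.09), where 5.49% of all peaks were called. Without S+P C4 replicate 1 there were 2 (4.01% of all peaks), and without S+P C4 replicate 3 or S+P C5 replicate 1 there were 5 (6.16% and 6.14%).

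S+P C7 against S+P C5 had 0 calls (background 2.38%), with 6 of the 19 at an unadjusted p under 0.05 in DESeq2 and 0 calls in edgeR. With the replicate block 2 were called, the Havcr2 promoter higher in C7 (0.98, adjusted p = 1.68e-08) and the Btla 27.9-kb peak lower (-0.92, adjusted p = 1.86e-07), where 3.27% of all peaks were called. Without S+P C7 replicate 1 there were 3 (4.47% of all peaks), and without S+P C7 replicate 2 there was 1 (2.34%). The interaction asks whether the difference of C5 cells from undivided cells without pregnancy changes with prior sensitization. It had 5 calls (background 5.97%), higher at Tigit and Btla (3.04% of all peaks) and lower at 3 Cd226 peaks (2.93%). Without Sensitized replicates 3 and 4 the Tigit and Btla calls remained (2.29 and 2.36) and those at Cd226 did not, while 2.36% of all peaks were called. Leaving out 1 library gave 2 to 12 calls. There were 12 when Sensitized replicate 1 was dropped (12% of all peaks), 8 when Naive replicate 3 was (9.77%), and 2 for Sensitized replicate 3, Sensitized replicate 4 or S+P C5 replicate 2 (4.08%, 3.39% and 3.7%). Dropping either of the other Naive libraries, or replicate 3 of N+P C5 or of S+P C5, gave 3 (2.92% to 5.33%), and dropping S+P C5 replicate 1 gave 7 (8.24%). The comparisons share libraries, so their calls are not independent of each other.

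**Figure D3:**
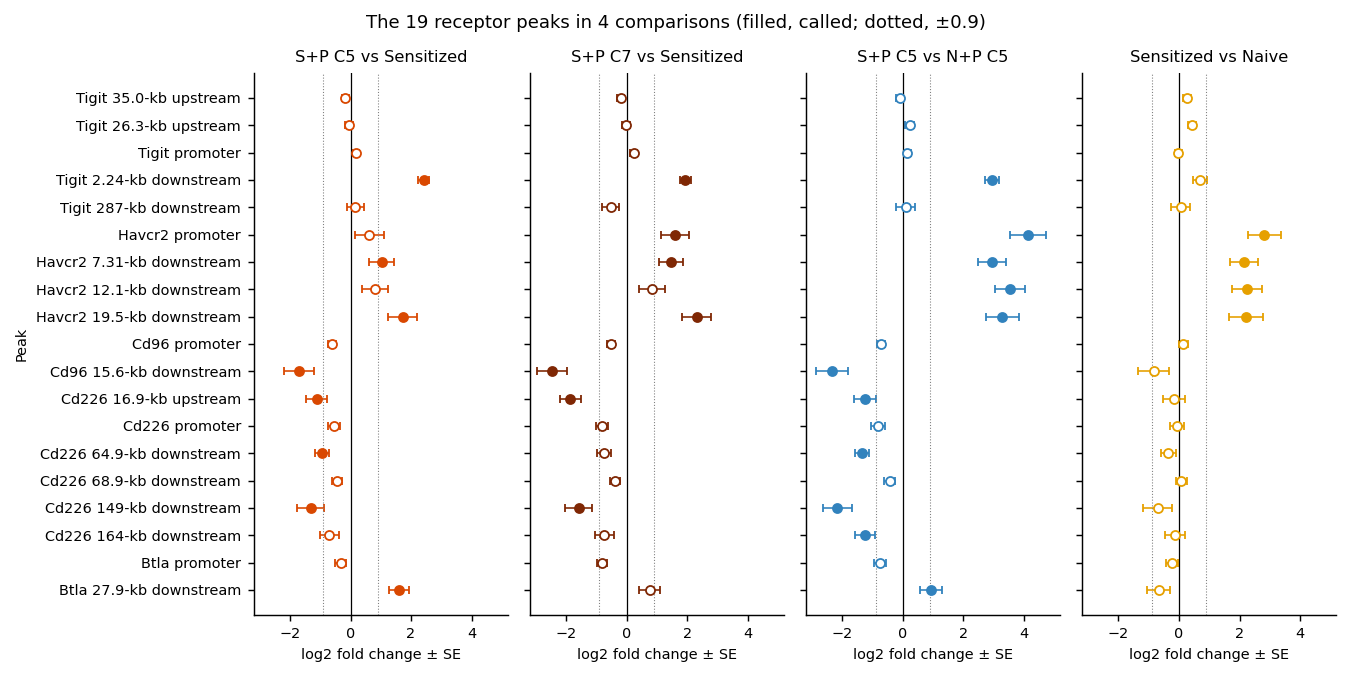
log2 fold changes (horizontal axes, points) with SE (bars) of the 19 peaks in 4 comparisons, with filled points for called peaks and dotted lines at -0.9 and 0.9. The Tigit 2.24-kb peak stands to the right in the 3 comparisons with S+P cells, the Havcr2 peaks stand to the right also in Sensitized against Naive, and the Cd96 and Cd226 peaks lie to the left in S+P cells.

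**Figure D4:**
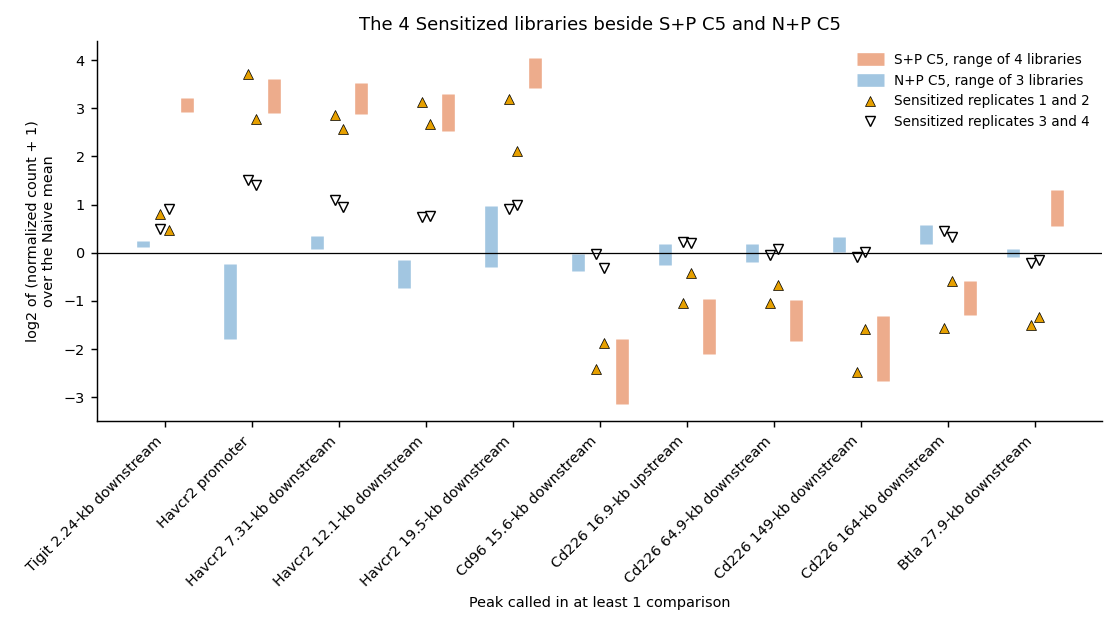
The 11 peaks called in at least 1 comparison, as log2 of the normalized count plus 1 over the Naive mean (vertical axis). Upward triangles are Sensitized replicates 1 and 2, downward triangles replicates 3 and 4, and vertical bars are the ranges of the N+P C5 (blue, left) and S+P C5 (orange, right) libraries. At Havcr2, Cd96 and Cd226 replicates 1 and 2 lie on the S+P C5 side of replicates 3 and 4, which are near N+P C5 at Cd96 and Cd226. At the Tigit and Btla peaks and at the 7.31-kb and 19.5-kb Havcr2 peaks all 4 lie below S+P C5.

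Genes that encode ligands and signaling partners of these receptors had 24 peaks, and other co-inhibitory receptors had 21. The shares of all peaks called higher were 3.08% in S+P C5 against Sensitized, 10.3% in S+P C5 against N+P C5 and 7.22% in Sensitized against Naive. Among the partner peaks, calls in S+P C5 against Sensitized were 4, all higher, at Ptpn11 (2.02), a phosphatase that inhibitory receptors recruit, and at 3 Fyn intron peaks (1.59, 1.15 and 1.00), a Src-family kinase. Leaving out Sensitized replicates 3 and 4, 2 of the 24 were called there, at Ptpn11 and Fyn. In S+P C5 against N+P C5 the calls were 5, all higher, at these peaks and at Lck (1.03), the kinase bound to CD8. Among the co-inhibitory receptor peaks, 3 were called in S+P C5 against Sensitized, all higher, 1 at Ctla4 (1.18) and 2 upstream of Pdcd1 (0.99 and 1.16), and without Sensitized replicates 3 and 4 the count was 1, at Ctla4. In S+P C5 against N+P C5 they were 11, all higher, at Pdcd1, Klrg1, Cd5, Ctla4 and Lilrb4a. In Sensitized against Naive, 5 of the 24 (4 higher and 1 lower) and 8 of the 21 were called, the 8 all higher, at Pdcd1, Klrg1 and Lilrb4a. Pdcd1 encodes PD1, a marker of the sort, so that its peaks are not independent of how C5 was chosen. In N+P C5 against Naive, 0 of the 24 and 0 of the 21 were called.

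The peaks most like the Tigit 2.24-kb peak across all 25 libraries, by Pearson's r of log2(normalized count + 1), lay in an intron of Irf2 (r = 0.976), 83.0 kb from Trib1 between genes (r = 0.970), in an intron shared by Supt3 and Runx2 (r = 0.969), in an intron of Prrc2b (r = 0.966) and in an intron of Asap1 (r = 0.958). The Irf2 peak averaged 24.4 normalized counts in Naive, 41.6 in Sensitized, 245 in S+P C5 cells and 209.5 in the C7 subset. These peaks were chosen for their likeness, and libraries share groups and depth.

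The deposited peak lists of the 7 groups are those from which the table was merged, so that membership is the filter that admitted a peak and no further evidence of a difference. The Tigit 2.24-kb, Btla 27.9-kb and Havcr2 promoter, 7.31-kb and 19.5-kb peaks each overlapped an interval of 1 list, that of S+P C5 for Tigit and Btla and that of S+P C7 for Havcr2. The Cd96 promoter was in 7 lists. The lists held 11 of the 19 peaks in Naive, 13 in N+P C1, 10 in N+P C5, 7 in Sensitized, 4 in S+P C4, 11 in S+P C5, while that of S+P C7 held 10. The authors made 1 list per group from its libraries, so a list carries no replicate error. Of the intervals over these peaks 1 had a q-value under 0.05, at the Tigit promoter in S+P C5.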

How the data were processed

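Per the labels and the study's methods, the authors trimmed reads (cutadapt 3.4), aligned them to GRCm39 (Bowtie2 2.2.9), removed non-unique reads and duplicates (Picard 2.21.8), called peaks per sample (Genrich 0.6.1 in ATAC-seq mode) and kept reproducible peaks per group. They merged the lists of 7 groups (bedtools 2.27.1) and deposited raw read counts per merged peak. The peak lists deposited by the authors hold a score and a q-value for each interval, read here from the column layout. Sequencing used a single run for the whole set.

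From the counts, DESeq2 1.42.0 (R 4.3.3) fitted all 13527 peaks in 25 libraries, with no term but the group, and gave unshrunken log2 fold changes, Wald tests and Benjamini-Hochberg adjusted p-values. Calls needed an adjusted p below 0.1 together with a log2 fold change beyond 0.9 in size, which are the thresholds of the study's methods. The interaction is (S+P C5 minus Sensitized) minus (N+P C5 minus Naive). Normalized counts are counts over DESeq2 size factors, intervals of fold changes are 95% Wald intervals, and no column of the table was left unused. Figures and summaries used pandas 2.3.3, numpy 2.4.6, scipy 1.17.1 and matplotlib 3.10.9. The fits were also run on simulated counts with known changes. Those counts had the same spread setting for all peaks and no deviating libraries, so they cannot show how the fits behave with such libraries.

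The sequence of 1 member peak is not reported here. Members, lists and searched strings were chosen with earlier results of these data known. Values per library are given for each gene's promoter peak and for up to 3 further peaks a gene that were called, by smallest adjusted p, and others by range and counts. The labels do not say which animals gave which library, so p-values measure the spread between these libraries. Same-numbered libraries deviated together in N+P C5 with N+P C1 (r = 0.108 to 0.400), S+P C5 with S+P C4 (0.103 to 0.572) and S+P C7 with S+P C5 (0.522 to 0.771), and not throughout in the other comparisons. The pairing is thus read from the data, since the labels state none. It was not complete, as S+P C5 replicate 2 was closer to S+P C4 replicate 3 (r = 0.440) than to S+P C4 replicate 2 (0.103). Alternatives were edgeR 4.0.16 (quasi-likelihood, TMM), total-count scaling, loess offsets by level (limma 3.58.1, span 0.3), a mean of at least 100 normalized counts, no independent filter, an adjusted p under 0.05, the compared groups alone, a replicate block, each library left out and, chosen after seeing the data, Sensitized replicates 3 and 4 left out together.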

Additional observations from a re-analysis of the deposited data

Results flagged for a closer look

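At the Tigit 2.24-kb peak, S+P C7 replicate 1 held 324 normalized counts and stood apart from the other 3 libraries of its group, at 224 to 237 (gap over range 0.871). It was the only such library among 76 groups of 4 libraries tested, and chance flags about 1 in 20 groups. Without it S+P C7 still lay above every Sensitized library.

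The gap between PD1+CD73+ cells and undivided cells without pregnancy differed between sensitized and unsensitized females at 5 peaks (DESeq2 interaction, log2 scale). It was 2.25 higher at the Tigit 2.24-kb peak and 1.60 higher at the Btla 27.9-kb peak. At Cd226 the difference was -0.996 at the 64.9-kb peak, -1.46 at the 149-kb peak and -1.10 at the 164-kb peak. The 149-kb and 164-kb peaks lie in Dok6 and belong to Cd226 by nearest start alone. Of all peaks 5.97% were called in the interaction, 3.04% higher and 2.93% lower. Without Sensitized replicates 3 and 4 the Cd226 values were -0.49, -0.18 and -0.22 and did not pass. Of 23 alternatives the 149-kb call was lost under 15, edgeR among them, the 164-kb call under 12 and the 64.9-kb call under 4. Of the 14 that left out 1 library, these were 10, 8 and 3. The Tigit and Btla calls were lost under 0 of the 23. Both peaks entered the table through the S+P C5 list alone, and every alternative used that table, so none bears on this selection. The part of the likeness of Sensitized replicates 3 and 4 to N+P C5 in the loss of the Cd226 calls was not tested.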

How the results depend on the processing

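The 39 calls of single peaks were recomputed under 664 alternative values, of which 590 kept direction and threshold, 71 lost the call and 3 reversed, and 15 calls were lost under none. The Tigit 2.24-kb and Btla 27.9-kb calls in S+P C5 against Sensitized were among the latter. Both peaks entered the table through the S+P C5 list alone, which no alternative changed. Total-count scaling, the mean filter and no independent filter lost 0 of the 39, and edgeR lost 1. Loess offsets, which set the mean difference of peaks of like level to 0 by construction, left 3 calls in S+P C7 against Sensitized and 6 in S+P C5 against N+P C5, and gave 7 in S+P C5 against S+P C4. Among calls they reversed Havcr2 at 7.31 kb in S+P C5 against Sensitized (-0.11) and at 19.5 kb in Sensitized against Naive (-0.69) and in S+P C5 against N+P C5 (-0.71).

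With the compared groups alone, calls were 0 in S+P C4 against Sensitized and 1 in S+P C7 against S+P C5. At an adjusted p under 0.05 the interaction had 3. The shares of all peaks called under these settings are not given, so these counts cannot be set against a background. With the replicate block, calls were 5 in S+P C5 against S+P C4 and 2 in S+P C7 against S+P C5. In N+P C5 against N+P C1 they were 0. In all of these comparisons same-numbered libraries deviated together, though the labels state no pairing. Elsewhere they share a number alone, and the block gave 7 in Sensitized against Naive (10.9% of all peaks), 0 in S+P C4 against Sensitized (0.347%) and 3 for the interaction (5.85%), with no count moved by over 1.5 times in the other comparisons. Without Sensitized replicates 3 and 4 the counts were 8 in Sensitized against Naive, 0, 2 and 5 for the S+P subsets C4, C5 and C7 against Sensitized, and 2 for the interaction. The cause of these changes was not tested.

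Leaving out 1 library gave 4 to 5 calls in Sensitized against Naive (6.69% to 10.9% of all peaks). There were 0 to 1 in N+P C1 against Naive, and 0 in N+P C5 against Naive or N+P C1. Against Sensitized the ranges were 0 to 3 for S+P C4 (0.488% to 1.94% of all peaks). For S+P C5 they were 5 to 11 (4.61% to 9.29%), and for S+P C7 they were 7 to 12 (10.3% to 14.5%). In S+P C5 against N+P C5 the range was 10 to 12 (16.2% to 18.7%). The ranges were 2 to 5 in S+P C5 against S+P C4, 0 to 3 in S+P C7 against S+P C5 and 2 to 12 for the interaction. The Havcr2 peaks of Naive and N+P cells held few reads, which limits the precision of their folds.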
